A study of Mus musculus with 6 samples.

Results

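In PP2Ac KO BMDM, transcripts of *Jak2*, *Tyk2*, *Stat2*, *Stat3* and *Stat5b* were higher than in PP2Ac WT BMDM, by 1.33-fold to 2.27-fold, while *Jak1*, *Stat4*, *Stat5a* and *Stat6* did not pass the test for genotype alone. With the replicate number as a block, *Jak1*, *Stat4* and *Stat6* also passed as higher, and *Stat5a* did not pass. The direction of small differences depended on how libraries were scaled. With library totals alone and no block, the log2 fold changes of *Jak1* (-0.07) and *Stat6* (-0.10) were negative without passing. *Stat5a* then passed as lower (-0.28). These genes encode JAK kinases and STAT transcription factors and were taken by symbol from the deposited count table: 3 JAK genes and 6 STAT genes, 9 of 55453 symbols. All 9 passed the filter on low counts and were among the 13680 genes tested. BMDM are macrophages grown from bone marrow. The 3 PP2Ac KO libraries came from LysMcre PP2Ac fl/fl mice, in which cre is expressed from the *Lyz2* promoter of myeloid cells and removes exon 1 of *Ppp2ca*, the gene of the catalytic subunit of the phosphatase PP2A. The 3 PP2Ac WT libraries came from wild-type mice. By the study's methods, the LysMcre PP2Ac fl/fl mice were provided by the University of Michigan and the wild-type mice by The Jackson Laboratory. Loss of PP2Ac, the presence of cre and the source of the mice cannot be told apart here. The labels give the strain C57BL/6 for both genotypes and name no treatment. The study's RNA-Seq figure describes BMDM of both genotypes given cGAMP, the ligand of STING, at 10 μg/mL for 4 hours, so that every library may share this treatment, and no library is labelled as untreated. Mice were 6 to 10 weeks old, and nothing in the labels says whether each library came from its own animal. The p-values therefore measure only the spread between these libraries.

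Cytokine receptors of this kind have no kinase of their own and carry JAKs on their intracellular tails. When a cytokine brings the receptor chains together, the JAKs phosphorylate each other, the receptor and a STAT, which forms dimers, enters the nucleus and binds DNA. Type I IFN receptors use TYK2 and JAK1, and STAT2 together with IRF9 recognises the ISRE element. Dimers of STAT3, STAT5 or STAT6 bind GAS-like elements. In macrophages, STAT3 acts downstream of IL-10 and IL-6, STAT5 downstream of GM-CSF, and STAT6 downstream of IL-4 and IL-13.

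The sequence upstream of the start site was examined because STATs and their partners bind there. In the 250 bases before each RefSeq start (GRCm38.p6), the ISRE core, GAAA and a further GAAA with any 2 bases between them, was searched on both strands. It was present at *Stat2*, 222 to 213 bases before the start, and at a downstream start of *Stat4*, 97 to 88 bases before it. The palindromic GAS core TTCNNNGAA had 0 matches in the windows of the 9 genes. *Stat4*, *Stat5a* and *Stat5b* had 2 windows each, and each other gene had 1. Over all 32851 windows of this length, 2.98% held the ISRE core and 7.02% held the GAS core. The windows of *Stat2* (chr10:128270248-128270497, plus strand) and *Stat4* (chr1:52007990-52008239, plus strand) are shown with the match in capitals. The window of *Jak2* (chr19:29251553-29251802, plus strand), the gene with the largest difference between genotypes, is shown as a contrast and had neither motif.
Stat2: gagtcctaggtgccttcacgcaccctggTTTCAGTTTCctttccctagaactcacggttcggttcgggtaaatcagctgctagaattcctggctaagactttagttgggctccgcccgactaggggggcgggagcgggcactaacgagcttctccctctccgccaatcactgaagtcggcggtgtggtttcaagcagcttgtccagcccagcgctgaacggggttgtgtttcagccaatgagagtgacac
Stat4: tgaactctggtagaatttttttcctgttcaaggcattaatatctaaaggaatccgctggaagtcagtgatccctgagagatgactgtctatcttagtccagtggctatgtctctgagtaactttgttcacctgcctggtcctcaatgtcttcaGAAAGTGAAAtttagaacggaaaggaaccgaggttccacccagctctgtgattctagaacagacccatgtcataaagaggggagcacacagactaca
Jak2: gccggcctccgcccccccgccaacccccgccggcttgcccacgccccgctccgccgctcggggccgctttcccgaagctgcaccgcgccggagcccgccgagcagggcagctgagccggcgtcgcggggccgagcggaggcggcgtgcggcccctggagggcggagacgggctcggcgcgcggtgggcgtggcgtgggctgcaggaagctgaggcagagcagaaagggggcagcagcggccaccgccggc
A match describes the letters only, and no binding was measured.

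The libraries held 35257156 to 47390899 counts. *Ppp2ca* had 47, 33 and 38 counts in KO libraries 1, 2 and 3 and 10654, 8913 and 8279 counts in the WT libraries (log2 fold change -7.67, SE 0.10), as the labels say. Levels are given as CPM, the counts of a gene relative to its library's total after TMM scaling, in the order of replicates 1, 2 and 3, with SD of 3 libraries. Fold changes, adjusted p-values (FDR) and 95% intervals come from the quasi-likelihood test of edgeR, adjusted by Benjamini-Hochberg over all genes tested, and an FDR under 0.05 counts as passing. In bulk RNA, fewer cells of a type and less RNA per cell cannot be told apart.

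Among the kinases, *Jak2* differed most. JAK2 serves receptors for GM-CSF, IL-3 and IFN-γ. Its level was 407, 344 and 317 CPM in the KO libraries and 204, 143 and 123 CPM in the WT libraries. The lowest KO library was above the highest WT library, although the WT libraries spread widely (CV 27.1%, against 13.0% in KO). The means were 356 ± 46.2 and 157 ± 42.5 CPM (SD, n = 3 each), a 2.27-fold difference with an interval of 1.73 to 2.98 (log2 fold change 1.18, SE 0.17, FDR 8.19e-04 by edgeR). Within libraries of the same number, the KO exceeded the WT by 1.0, 1.27 and 1.37 on the log2 scale. *Tyk2*, the kinase bound to the IFNAR1 chain and to receptors for IL-12 and IL-10, had 214, 189.6 and 182 CPM in KO and 127, 115 and 116 CPM in WT. Each KO library was again above each WT library, and the spread was smaller than for *Jak2*. The difference was 1.64-fold, with an interval of 1.45 to 1.85 (log2 fold change 0.71, SE 0.08, FDR 2.30e-04 by edgeR). *Jak1*, the kinase shared by IFN, IL-6 and IL-10 receptors, had 263, 246 and 246 CPM in KO and 251, 218 and 217 CPM in WT. The groups overlapped through WT library 1. Its log2 fold change was 0.14, with an interval of -0.03 to 0.31 (FDR 0.181 by edgeR). With replicate number as a block the estimate was the same and passed (FDR 0.0176), and it also passed without WT replicate 1 (log2 fold change 0.21, FDR 0.0224).

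*Stat2*, the STAT particular to type I and type III IFN signalling, had 1075, 1015 and 978 CPM in KO and 742, 615 and 594 CPM in WT, so the groups did not overlap. The difference was 1.57-fold, with an interval of 1.36 to 1.82 (log2 fold change 0.65, SE 0.09, FDR 7.62e-04 by edgeR). *Stat3*, which carries the anti-inflammatory signal of IL-10, had 474, 428 and 389.9 CPM in KO and 326, 276 and 229.7 CPM in WT. The KO libraries were all above the WT libraries, with WT library 3 the lowest. The means were 430.4 ± 41.9 and 277 ± 48.0 CPM (SD, n = 3 each), a 1.55-fold difference with an interval of 1.28 to 1.89 (log2 fold change 0.63, SE 0.12, FDR 0.00366 by edgeR). *Stat5b* had 88.8, 86.3 and 87.2 CPM in KO and 70.8, 65.6 and 61.1 CPM in WT. The KO libraries lay close together (CV 1.43%, against 7.38% in WT) and above every WT library. The difference was 1.33-fold, with an interval of 1.2 to 1.47 (log2 fold change 0.41, SE 0.07, FDR 0.00138 by edgeR).

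Its paralog *Stat5a* did not follow. STAT5A and STAT5B are closely related factors that act downstream of GM-CSF, and their genes lie side by side on chromosome 11. *Stat5a* had 25, 22.9 and 22.9 CPM in KO and 23.9, 25.9 and 24.3 CPM in WT. The groups overlapped, and the log2 fold change was -0.06 with an interval of -0.22 to 0.09 (FDR 0.492 by edgeR). *Stat6*, the IL-4 and IL-13 factor, had 259, 257 and 259 CPM in KO and 246, 237 and 234 CPM in WT. Here the KO libraries were above the WT libraries, but by little. The log2 fold change was 0.11, with an interval of -0.02 to 0.25 and an FDR of 0.173 by edgeR without the block and 0.0417 with it. *Stat4*, known mainly from IL-12 signalling in lymphocytes, had 8.20, 9.18 and 5.66 CPM in KO (348, 303 and 236 counts) and 7.75, 6.69 and 3.75 CPM in WT (385, 291 and 157 counts). The groups overlapped and library 3 was the lowest in both genotypes. Its log2 fold change was 0.33 with an interval of -0.25 to 0.90 (FDR 0.346 by edgeR), and 0.35 with an FDR of 0.0171 with the block. Without WT replicate 3, the *Stat4* log2 fold change was 0.08.

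**Figure D1:**
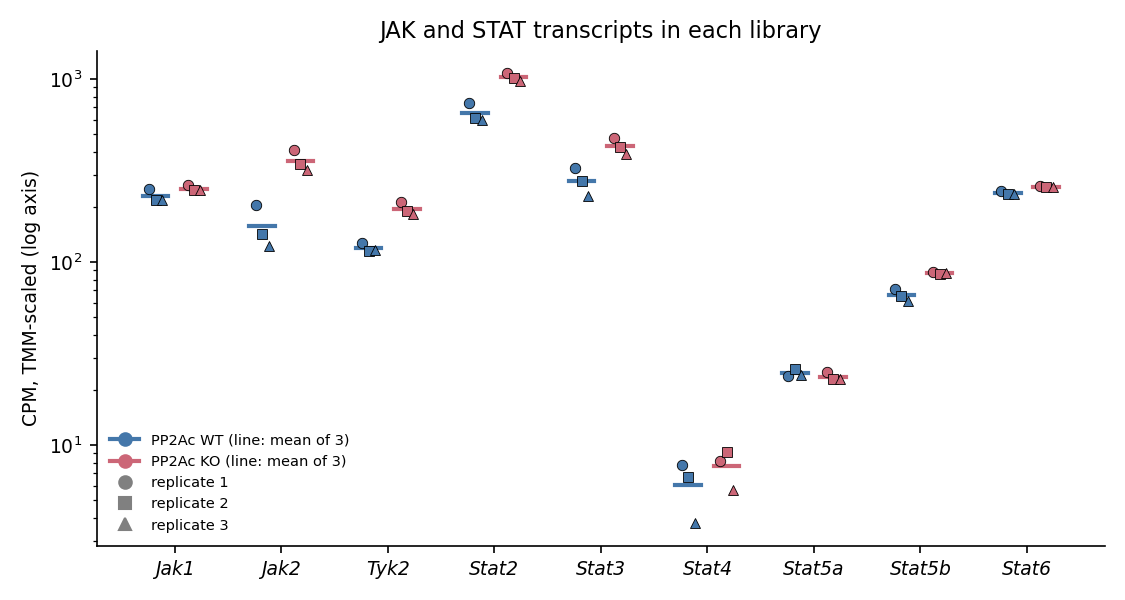
Level of each gene in each library, in TMM-scaled CPM on a log axis, with PP2Ac WT in blue, PP2Ac KO in red, symbols for replicate number and lines for the means of 3 libraries. The KO points of *Jak2*, *Tyk2*, *Stat2*, *Stat3*, *Stat5b* and, by a small margin, *Stat6* lie above all WT points, and those of *Jak1*, *Stat4* and *Stat5a* overlap them.

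Thus 5 of the 9 genes were higher in KO and 0 were lower, where 18.1% of all genes tested were higher and 19.0% lower. The 6 genes whose KO libraries all lay above the WT libraries in TMM-scaled CPM compare with 24.0% of genes tested. With the replicate block, 8 of 9 passed as higher, *Jak1*, *Stat4* and *Stat6* being added, against 24.4% of genes tested. The block was fitted with TMM factors only. At the thresholds of the study's legend (log2 fold change over 1 and FDR under 0.01) only *Jak2* was called, against 3.36% of genes tested. The count of 0 lower genes was the same at an unadjusted p under 0.05 in edgeR and at an FDR under 0.05 in DESeq2 and limma-voom. The median log2 fold change of the 9 genes was 0.41, and that of all genes tested was -0.02. The same numbers carried the same rank in several genes: 7 of the 9 were highest in library 1 of both genotypes, *Stat4* and *Stat5a* being the exceptions. The share of all genes tested that did so was not computed. This count therefore cannot be called particular to the 9 genes. *Ifnb1*, which encodes the STING-induced IFN-β, had 19.2, 13.1 and 15.4 CPM in KO and 8.86, 5.91 and 4.32 CPM in WT, and was also highest in library 1 of each genotype. A link between *Ifnb1* and the rank of these genes was not tested.

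The scaling of the libraries bears on the genes with small differences. TMM factors were 0.910 to 0.937 in KO and 1.05 to 1.10 in WT. When library totals were used alone, the median over all genes tested moved to a log2 fold change of -0.24, and the genes passing were 1503 higher and 6125 lower (11.0% and 44.8% of genes tested) in place of 2470 and 2604. The same 5 JAK and STAT genes passed as higher under these totals, with log2 fold changes of 0.97 for *Jak2*, 0.49 for *Tyk2*, 0.44 for *Stat2*, 0.42 for *Stat3* and 0.19 for *Stat5b*. The values of *Jak1* (-0.07) and *Stat6* (-0.10) turned negative without passing, and *Stat5a* passed as lower (-0.28, FDR 0.00918 by edgeR). Under TMM scaling, *Jak1* and *Stat6* were above the median of all genes and *Stat5a* was close to it. A change of scaling moves all genes and their median nearly alike. The place of a gene relative to the median therefore cannot test the scaling.

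**Figure D2:**
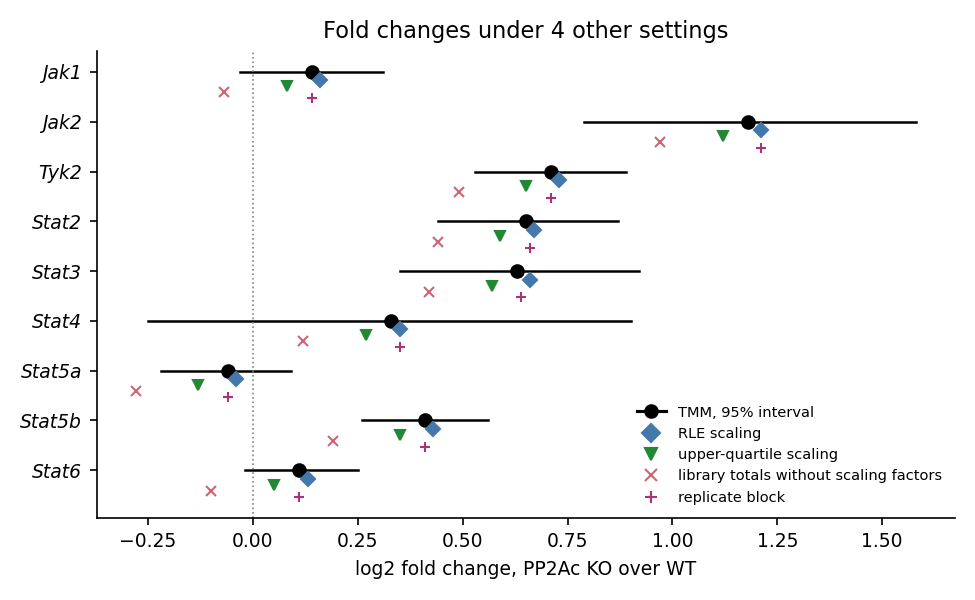
Log2 fold change of KO over WT for each gene, with black points and bars for the TMM estimate and its 95% interval and smaller marks for 3 other scalings and the replicate block. The marks of *Jak2*, *Tyk2*, *Stat2*, *Stat3* and *Stat5b* all lie to the right of 0, and with library totals alone those of *Jak1* and *Stat6* lie to the left.

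Levels of different genes were compared per kb of exon, scaled in each library to the same sum over the genes tested (a TPM-like level, which uses no TMM factor). *Stat2* was the highest in both genotypes, at 447 ± 20.9 in KO and 345 ± 45.0 in WT (SD, n = 3 each). It ranked above 98.0% of genes tested in KO and 97.4% in WT. *Jak2* was next in KO, at 183 ± 23.2, followed by *Stat6* (152 ± 0.801), *Stat3* (117 ± 11.3), *Jak1* (90.3 ± 3.03) and *Tyk2* (73.7 ± 5.97). The ranges of neighbours in this order did not overlap in KO per merged exon. In WT, *Stat6* was next after *Stat2*, at 170.4 ± 5.50, followed by *Jak1* (99.3 ± 9.14), *Jak2* (97.9 ± 27.3), *Stat3* (91.5 ± 16.3) and *Tyk2* (54.6 ± 3.60). *Jak2* did not differ from *Jak1* or from *Stat3* in WT beyond the spread of the libraries. With the longest transcript as length, *Jak2* (60.8 to 102 in WT) lay below *Jak1* (109.7 to 129) without overlap, and in KO *Stat3*, *Jak2* and *Stat6* could not be ordered beyond their spread. *Stat5b* (40.9 ± 0.350 in KO, 37.3 ± 2.96 in WT), *Stat5a* (8.57 ± 0.411 and 10.9 ± 0.398) and *Stat4* (5.14 ± 1.25 and 4.92 ± 1.70) closed the order in both genotypes. Per merged exon and without TMM factors, each KO library lay below each WT library for *Stat6*, *Jak1* and *Stat5a*. For *Stat6* the levels were 151 to 153 in KO and 167 to 177 in WT, the reverse of its order in TMM-scaled CPM. They were 87.9 to 93.7 and 93.9 to 110 for *Jak1*, and 8.27 to 9.04 and 10.6 to 11.3 for *Stat5a*.

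**Figure D3:**
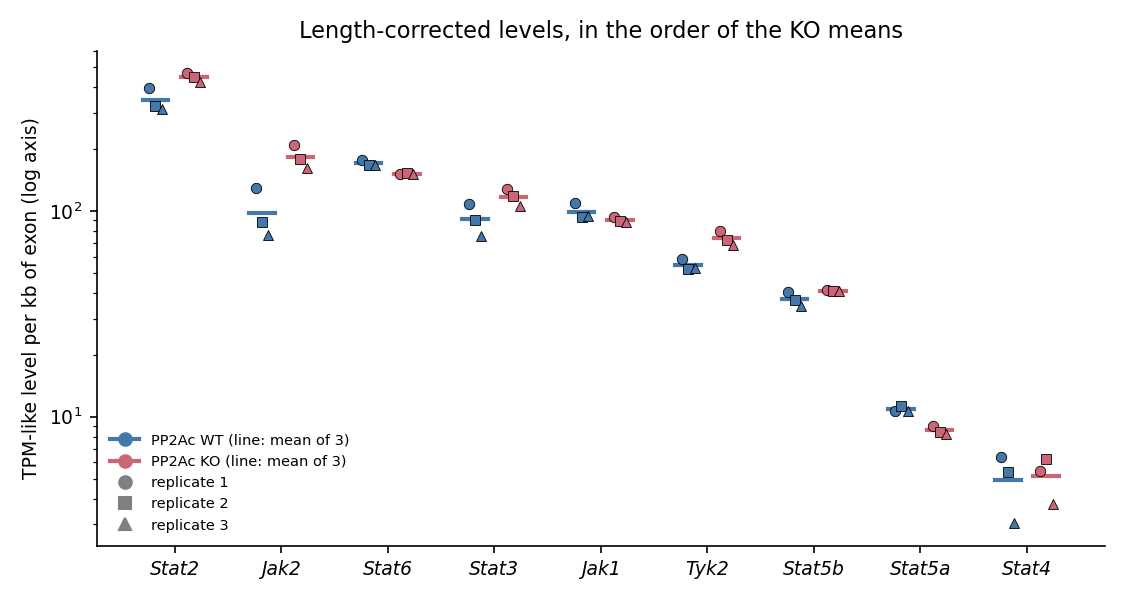
Length-corrected level of each gene in each library on a log axis, ordered by the KO mean, with lines for the means of 3 libraries. *Stat2* is the highest and *Stat4* the lowest in both genotypes, and *Jak2* stands above *Stat6* in KO and below it in WT.

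Shares among the 3 JAK genes and among the 6 STAT genes were computed within libraries, where scaling between libraries cancels. Other genes of these families are not in the sums. *Jak2* made up 54.5%, 52.6% and 51.0% of the summed level of *Jak1*, *Jak2* and *Tyk2* in KO, and 43.3%, 37.8% and 34.2% in WT. *Jak1* made up 24.5%, 26.2% and 27.6% in KO and 37.0%, 40.0% and 42.1% in WT. The share of *Tyk2* overlapped, at 21% to 21.4% in KO and 19.7% to 23.7% in WT. *Jak2* was thus the most abundant of the 3 kinases in each KO library. In WT the order depended on the length used: *Jak2* led in library 1 per merged exon, and *Jak1* led in each WT library per longest transcript. With the longest transcript, *Jak2* made up 41.8% to 45.3% of the sum in KO and 26.3% to 34.4% in WT. Among the 6 STAT genes, *Stat2* made up 57.9% to 58.2% in KO and 50.9% to 53.7% in WT. *Stat6* made up 18.9% to 20.6% in KO and 23.9% to 27.6% in WT, so these shares did not overlap. *Stat3* overlapped, with 14.4% to 16.0% in KO and 12.5% to 14.6% in WT. The ratio of *Stat5a* to *Stat5b* per kb was 0.219, 0.206 and 0.204 in KO and 0.262, 0.307 and 0.309 in WT. The ratio in KO was 0.718 of that in WT (log2 difference -0.48), with p = 0.1 in an exact two-sided permutation test, the smallest p that 3 against 3 allows.

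**Figure D4:**
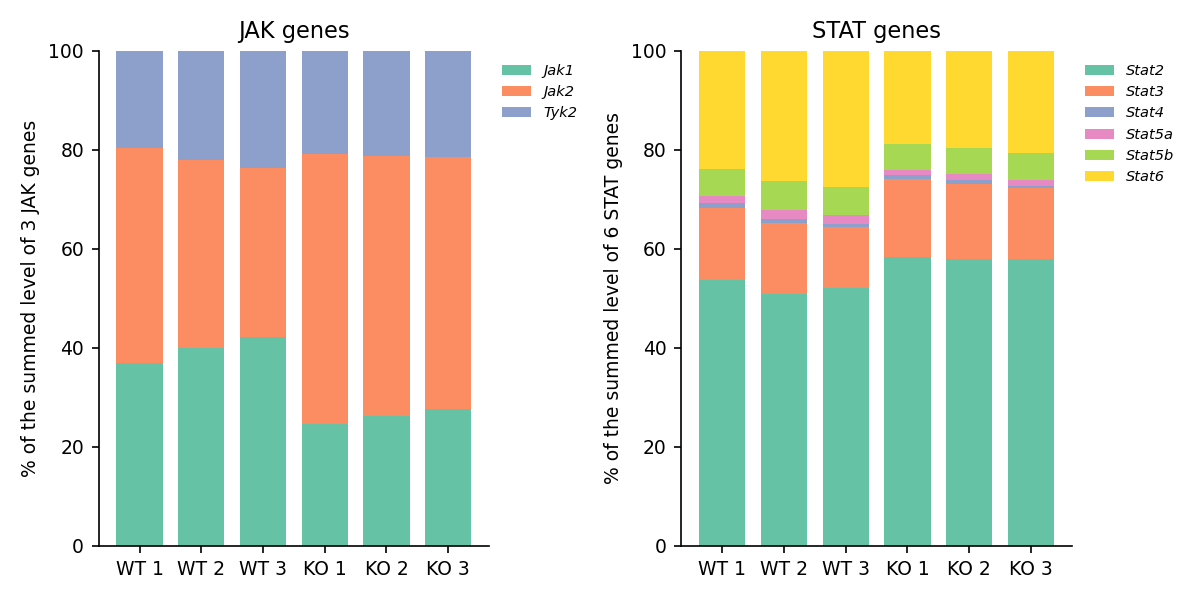
Share of each gene in the summed length-corrected level of the 3 JAK genes (left) and the 6 STAT genes (right), in percent, with a bar for each library. *Jak2* fills 51.0% to 54.5% of the JAK bars in KO and 34.2% to 43.3% in WT, and *Stat2* fills 50.9% to 58.2% of the STAT bars.

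The genes' positions bear on these counts. In GRCm38, *Stat5b* (chr11:100780731-100850724, minus strand), *Stat5a* (chr11:100859351-100885169, plus strand) and *Stat3* (chr11:100885098-100939540, minus strand) follow each other, with 8626 bp between *Stat5b* and *Stat5a*. The ends of *Stat5a* and *Stat3* overlap by 72 bp of exon. *Stat5a* and *Stat5b* share exon sequence: 8.21% of the 50-base windows of *Stat5a* and 11% of those of *Stat5b* occur in the other, so reads there may have been lost or divided. *Jak1* (chr4:101152367-101265282, minus strand), *Jak2* (chr19:29251828-29313080, plus strand) and *Stat6* (chr10:127642986-127660957, plus strand) had no such shared windows. *Stat2* (chr10:128270559-128292849, plus strand) lies 609601 bp from *Stat6*, and *Tyk2* (chr9:21104068-21131243, minus strand) overlaps an antisense transcript, *1700084C06Rik*, with 0 to 3 counts. *Stat4* (chr1:51987148-52107189, plus strand) shares 26.7% of its exons with *Gm28177*, a noncoding transcript of the same strand that had 2 to 14 counts, and its own counts are uncertain to that extent. The strand setting of the authors' counting is not given in the sources used here.

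Of the genes around the kinases, receptor chains were listed first, and the counts of all lists are to be read beside the shares of genes tested, 18.1% higher and 19.0% lower. With the block these shares were 24.4% and 26.4%, and with library totals alone 11.0% and 44.8%. Of 40 chains listed, 29 were tested, 9 were higher in KO, 3 were lower and 17 did not pass, with a median log2 fold change of 0.14. With the block 14 were higher and 5 lower, with library totals alone 8 were higher and 8 lower, and without KO replicate 1 or KO replicate 2 only 1 was lower. *Il12rb1*, a chain of the IL-12 and IL-23 receptors that binds TYK2, had the largest difference but was scarce, with 2.03, 1.82 and 1.89 CPM in KO and 0.584, 0.276 and 0.262 CPM in WT (log2 fold change 2.32, FDR 3.30e-04 by edgeR). *Il15ra* (1.28), *Il2rg* (1.21), the common γ chain, and *Il13ra1* (1.14) were also higher on the log2 scale. *Osmr*, the oncostatin M receptor chain that signals through JAK1, was lower, with 0.566, 0.364 and 0.623 CPM in KO and 1.69, 1.91 and 1.17 CPM in WT (log2 fold change -1.59, FDR 0.00168 by edgeR).

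The ligands of these receptors include IFNs, interleukins and the IL-6 family. Of 36 listed, 11 were tested, 7 were higher, 1 was lower and 3 did not pass, with a median log2 fold change of 0.80. *Il10*, whose receptor signals through JAK1, TYK2 and STAT3, had 26.1, 23.4 and 19.9 CPM in KO and 9.32, 6.81 and 4.65 CPM in WT (log2 fold change 1.73, FDR 3.10e-04 by edgeR). *Il27* (1.71), *Ifnb1* (1.32) and *Il6* (1.18) were also higher on the log2 scale. With the block 8 ligands were higher. The lower ligands were 0 without KO replicate 2, KO replicate 3 or WT replicate 2, and 2 without WT replicate 3 or with the block.

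Negative regulators of the pathway were higher in 8 of 19 genes, lower in 1 and not called in 10, with a median log2 fold change of 0.13. *Socs3*, the feedback inhibitor of IL-6 family receptors and a STAT3 target, had 63.9, 45.9 and 49.0 CPM in KO and 19.0, 18.1 and 21.4 CPM in WT (log2 fold change 1.44, FDR 8.21e-05 by edgeR). *Usp18* (1.27), which blocks JAK1 at IFNAR2, *Cish* (1.05), induced by STAT5, *Socs1* (0.81), which inhibits JAK kinase activity, and *Socs7* (0.73) were the other SOCS family or IFN feedback genes with the largest differences on the log2 scale. The gene that was lower was *Pias3*, a protein inhibitor of activated STAT3 (-0.32, FDR 0.0124 by edgeR). Without KO replicate 1 or WT replicate 2 the lower genes were 0, without WT replicate 1 or with the block they were 2, and with library totals alone 6. With the block the higher genes were 10. Of 8 partner genes, 2 were higher and 0 lower. These were *Nmi*, a STAT-interacting protein (log2 fold change 1.14, FDR 2.83e-04 by edgeR), and *Irf9*, the DNA-binding partner of STAT2, (0.28, FDR 0.00697 by edgeR). With the block, 4 partners were higher and 1 lower, and with library totals alone 1 was higher and 4 were lower.

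Known targets of the STATs were listed by hand, with earlier results of these data known, and some genes stand in more than 1 list. The counts therefore describe the lists and do not test the STATs. All 23 genes of the STAT2 list were higher, with a median log2 fold change of 1.08, the largest difference being that of *Ifi44* (2.55). In the STAT3 list 9 of 12 were higher and 0 lower (median 0.80), among them *Junb* (1.34), *Il1rn* (1.26), the IL-1 receptor antagonist, and *Bcl3* (1.09). In the STAT5 list 7 of the 8 tested were higher and 0 lower (median 0.85). *Ccnd2*, cyclin D2, led it with 87.1, 69.6 and 62.8 CPM in KO and 19.7, 13.2 and 12.1 CPM in WT (log2 fold change 2.28, FDR 6.41e-05 by edgeR). In the STAT6 list 4 of the 9 tested were higher and 0 lower (median 0.40). Those were *Chil3*, at most 0.909 CPM in any library, *Clec10a*, *Klf4* and *Tgm2*. With the block, 11 genes of the STAT3 list and 5 of the STAT6 list were higher. With library totals alone, 22 genes of the STAT2 list and 7 of the STAT3 list were higher. In the STAT5 and STAT6 lists, 6 and 3 were higher with these totals. In the STAT6 list 1 gene was lower with the block, upper-quartile scaling, library totals alone, no filter on low counts, or without WT replicate 1. For the partners and the STAT2, STAT3 and STAT5 lists, 0 genes were lower also at an unadjusted p under 0.05 in edgeR and by DESeq2 and limma-voom, and for the STAT6 list 1 gene was lower at the unadjusted p and 0 by the other tools. Target levels do not measure STAT phosphorylation or binding.

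**Figure D5:**
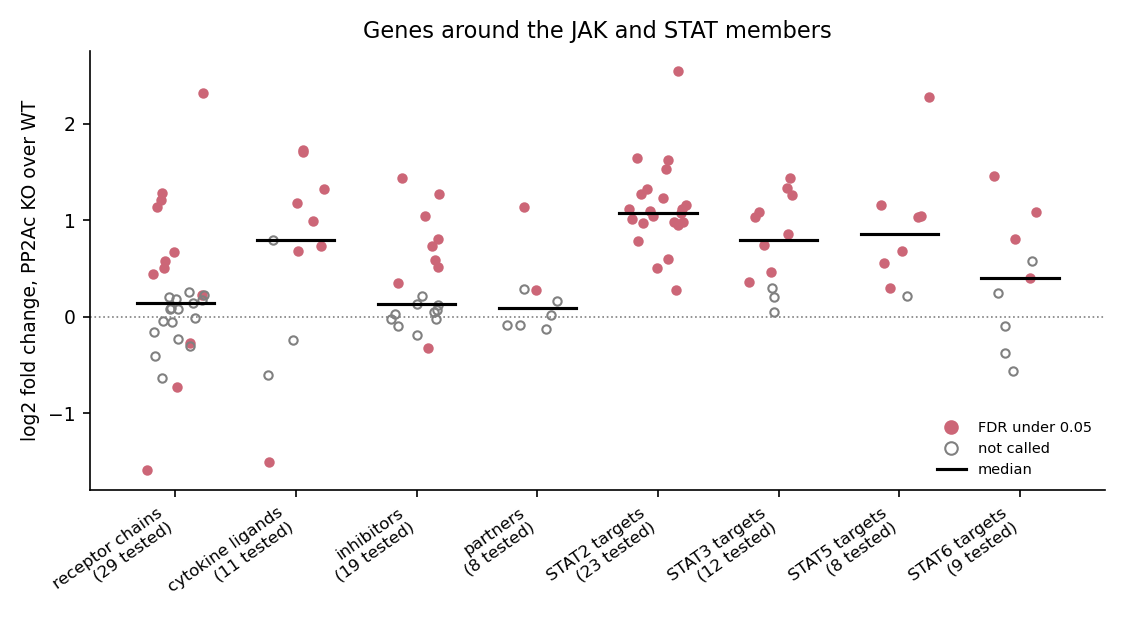
Log2 fold change of KO over WT for the tested genes of 8 lists, with filled points for genes at an FDR under 0.05, open points for the others, bars for medians and a random sideways shift. The receptor, inhibitor and partner medians lie between 0.09 and 0.14, and those of the ligands and of the STAT2, STAT3 and STAT5 targets between 0.80 and 1.08.

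For each gene that passed, the genes with the most similar pattern over the 6 libraries were found by Pearson's r of log2 CPM, as a description over libraries that share genotype and replicate number. *Jak2* was closest to *Usp15* (0.9997) and *Tmem184b* (0.9996). *Tyk2* was closest to *Stx16* (0.9992) and to *Ppp2r5a* (0.9991), which encodes a regulatory subunit of PP2A and had a log2 fold change of 0.66 (FDR 3.53e-04 by edgeR). *Stat2* was closest to *Gm6904* (0.9999) and *Parp12* (0.9996), an IFN-induced gene. *Stat3* was closest to *Hopx* (0.9998) and *Tmem127* (0.9990), whose own log2 fold change was 0.09 and did not pass (FDR 0.230 by edgeR). *Stat5b* was closest to *Gm38345* (0.9996) and to *Il15* (0.9995), which had a log2 fold change of 0.99.

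The libraries carried macrophage markers at 7294 to 7483 CPM in sum in KO and 6170.1 to 6801 CPM in WT, with 2 of 7 higher and 0 lower. *Lyz2* itself had 260 to 421 counts, and did not pass the test. T and NK cell markers, of which 4 of 5 had at most 3 counts in each library, summed to at most 0.212 CPM, so that *Stat4* was read in libraries nearly without them. B cell markers summed to 0.684 to 1.34 CPM in KO and 0.501 to 0.584 CPM in WT, without overlap of the groups. Only 1 of the 3 B cell genes was tested, and it did not pass. Dendritic cell markers summed to at most 1.73 CPM and neutrophil markers to at most 0.168 CPM. Fibroblast markers moved with genotype: 4 of 4 were lower in KO, at 22.7 to 33.4 CPM in sum against 74.9 to 118 CPM in WT. Their part in the JAK and STAT differences was not tested.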

How the data were processed

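RNA-Seq of 6 libraries of mouse BMDM was analysed, 3 PP2Ac KO and 3 PP2Ac WT, grouped by the labels. The extract protocol gives poly(A) RNA, a directional library kit and paired reads of 150 bases. The authors deposited whole-number counts per gene, without normalization, on mm10 (GRCm38). The submitters' processing notes name fastp 0.20.0, STAR 2.7.1a, HTSeq 0.11.2, kallisto 0.46.1, edgeR 3.34.0 and limma 3.48.3. Which of them made the counts, and the annotation and strand setting used, are not given in the sources used here.

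The 9 genes and all gene lists were chosen with earlier results of these data known. Other genes of these families, and 1 gene counted in a list, are not reported here by name. Counts were analysed with edgeR 4.0.16 in R 4.3.3. Genes were kept by filterByExpr (minimum count 10, minimum total 15), TMM factors were applied, and genotype was tested over 13680 genes by the quasi-likelihood functions glmQLFit and glmQLFTest, with Benjamini-Hochberg adjustment. The common dispersion corresponded to a biological coefficient of variation of 8.77%. The steps were tested on simulated data with the common dispersion for every gene, balanced changes and no replicate effect. That simulation could not test the choice of scaling or of the block. Replicate numbers are shared by the genotypes in the labels. Deviations of same-numbered libraries from their group means correlated at 0.289, 0.148 and 0.337. Differently numbered libraries were not compared in this way. The main fit used genotype alone and did not pair the libraries. A fit with the number as a block is given where it changed a call of the 9 genes or a count of a list. What the numbers share is not stated. Alternatives were upper-quartile and RLE scaling, leaving out the filter, at least 10 counts in every library, DESeq2 1.42.0, limma-voom (limma 3.58.1) and leaving out each library. Scaling by library totals alone was added after seeing the data.

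Exon lengths and positions are from GENCODE M21 on GRCm38, which held 98.3% of the table's symbols, and start-site sequences from RefSeq (GRCm38.p6). A count of 3 corresponded to 0.0604 to 0.0909 CPM. Such floors cover counting error only. Besides the 9 genes, *Ppp2ca* and *Lyz2*, named genes are at most 5 per list with the largest log2 fold change among those passing without overlap of the groups, the 2 genes most like each member that passed, and genes overlapping a member. *Pias3* was named after its values were seen.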

Additional observations from a re-analysis of the deposited data

How the results depend on the processing

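For the 5 genes that passed, all 70 fold changes over 14 alternative settings kept their direction and their call, and 119 of all 126 fold changes of the 9 genes did. With the replicate block, the genes passing as higher were 8 in place of 5, and the block changed no other call of the 9 genes. With library totals without scaling factors, 1 gene passed as lower (*Stat5a*, -0.28) and 0 passed the thresholds of the study's legend (*Jak2*, 0.97). The log2 fold changes of *Jak1* (-0.07) and *Stat6* (-0.10) were then negative, and the counts over all genes were 1503 higher and 6125 lower. These totals differ from TMM by construction, since TMM factors were lower in KO.

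Leaving out each library in turn gave 5 to 6 genes passing as higher, 0 as lower, and 1 at the legend's thresholds. Over all genes it gave 1974 to 2721 higher and 1873 to 2720 lower, and 63 to 76 calls in the lists in place of 68. The log2 difference of the *Stat5a* to *Stat5b* ratio ranged from -0.56 to -0.44. Log2 fold changes ranged over all settings from 0.97 to 1.42 for *Jak2*, 0.49 to 0.76 for *Tyk2*, 0.44 to 0.76 for *Stat2*, 0.42 to 0.77 for *Stat3* and 0.19 to 0.47 for *Stat5b*. Of 224 counts of calls in single lists, 28 moved by over 1.5 times, 14 and 5 receptor chains with the block among them. With the longest transcript as length, 7 of the 9 genes kept their place in the order of levels. *Stat4* had the lowest counts of the 9 genes, 157 to 385 per library.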
